A study of Mus musculus with 6 samples.

Results

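Cyp4b1, Cyp2e1, Por, Cyb5a, Cyb5b, Cyb5r1 and Cyb5r3 encode a pair of cytochrome P450 enzymes and the proteins that pass electrons to enzymes of this kind. They are 7 of the 8129 genes on which reads fell in 6 libraries of full-length cDNA from mouse interscapular brown fat, the heat-producing depot between the shoulder blades. The 7 genes were chosen by name, with their read counts in the cold and control libraries of this series already known. Their differences between the groups are therefore given as a description, with no test. The libraries came from male wild type C57BL/6N mice aged 20 weeks, and each library is 1 mouse. In the cold group, mice 4, 11 and 15 were kept singly at 4 °C for 24 h, and the control group held mice 2, 9 and 14. Only the general housing at 22 to 24 °C is known for the controls, so single housing and cold cannot be told apart. Poly(A) RNA was selected in 2 rounds, capped full-length cDNA was amplified over 27 PCR cycles with the TeloPrime kit, and 400 ng of cDNA was sequenced on nanopore flow cells.

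Microsomal P450 enzymes sit in the membrane of the endoplasmic reticulum and insert an oxygen atom into fatty acids, steroids, drugs and other small molecules. Their electrons come from NADPH through POR, the flavoprotein NADPH-cytochrome P450 reductase, and for some of them also from cytochrome b5. Cytochrome b5 is a small heme protein that is itself reduced by NADH-cytochrome b5 reductase, and in fat it also feeds the fatty acid desaturases. CYP4B1, a P450 best known from lung epithelium, belongs to the fatty acid hydroxylating family 4. CYP2E1 oxidises ethanol, acetone and fatty acids and is best known from liver.

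The controls held 1849431, 1014847 and 1735360 reads in mouse order, and the cold libraries 2923005, 2982713 and 2951890, so raw counts cannot be compared between the groups without scaling, and a difference in depth cannot be told apart from the cold. Levels below are CPM, read counts relative to the library total after scaling by trimmed mean of M-values (TMM). A level of 3 reads corresponded to 1.01 to 2.96 CPM before that scaling. The 8 brown adipocyte markers all had reads and summed to 48638 to 59086 CPM in the controls and 51793 to 55609 CPM in the cold. All 6 markers of airway and lung epithelium, the best known site of Cyp4b1, were at 0 in every library. Of 8 hepatocyte markers 2 had reads, at no more than 0.993 CPM in sum, and Alb, Apoa1 and Ttr were at 0. Skeletal muscle markers, by contrast, summed to 67.6, 259 and 454 CPM in control mice 2, 9 and 14 and to 88.3, 1216 and 6500 CPM in cold mice 4, 11 and 15. Endothelial, macrophage and fibroblast markers each stayed at or below 122 CPM in sum. The 4 white adipocyte markers summed to 66.5 to 119 CPM in the controls and to 166 to 256 CPM in the cold, and their part in the results below was not tested. In whole tissue, fewer cells of a type and less RNA per cell cannot be told apart.

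Cyp4b1 was scarce in the controls and abundant in the cold. Reads numbered 38, 11 and 26 in control mice 2, 9 and 14 and 561, 700 and 734 in cold mice 4, 11 and 15. These counts gave 20.6, 11.3 and 15.6 CPM in the controls and 188, 232 and 242 CPM in the cold. The groups lay far apart, with the lowest cold library well above the highest control. The mean went from 15.8 ± 4.63 to 221 ± 28.4 CPM (SD, n = 3 each), a 13.9-fold difference and a log2 change of 3.77 ± 0.27 (SE). With all libraries thinned to equal depth the log2 change was 3.82. Counting error was small beside this: the 11 reads of control mouse 9 had an exact 95% Poisson interval of 5.64 to 20.2 CPM, and the 561 reads of cold mouse 4 had one of 173 to 205 CPM. These intervals, like others below, cover counting error only, because PCR copies are not independent molecules.

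**Figure D1:**
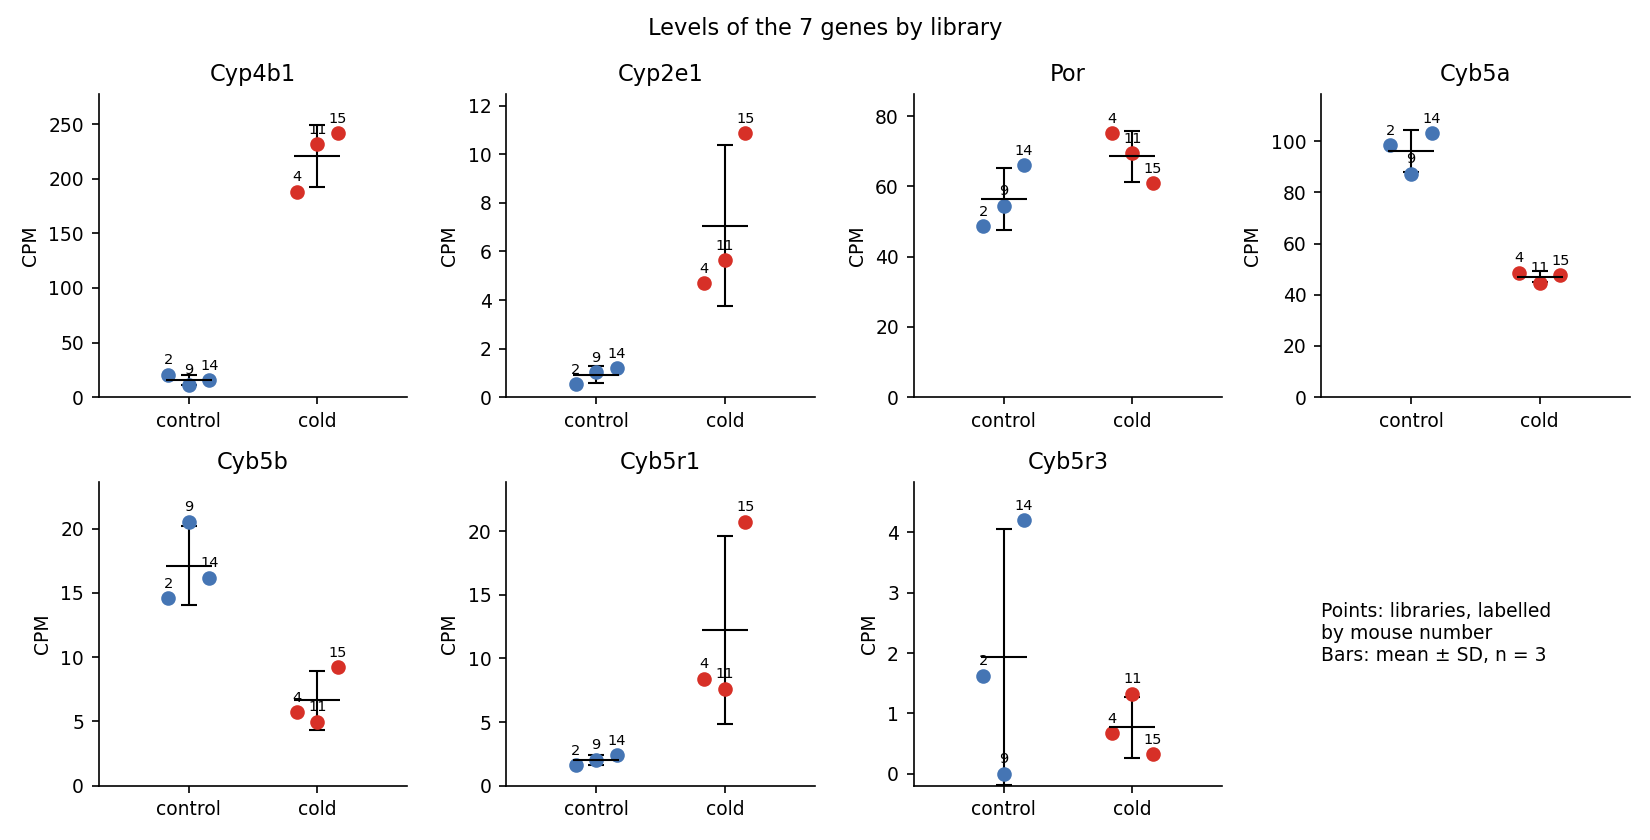
Level of each of the 7 genes in CPM (vertical axes from 0, or just under it where an error bar crosses 0) in control (blue) and cold (red) libraries, each point labelled with its mouse number and bars giving mean ± SD, n = 3. Cyp4b1, Cyp2e1 and Cyb5r1 were higher in all 3 cold libraries than in any control, Cyb5a and Cyb5b were lower in all 3, and the groups of Por and Cyb5r3 overlapped.

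The Cyp4b1 gene (ENSMUSG00000028713) lies on the minus strand at chr4:115624725-115647723 of GRCm38. Nearly all its reads, 2056 of 2070, fell on 1 coding transcript, Cyp4b1-201, with 12 exons, 1892 bases and 511 residues. A further 12 reads fell on Cyp4b1-202, annotated for nonsense-mediated decay. The nearest copies by sequence, the pseudogenes Cyp4b1-ps1 and Cyp4b1-ps2, share up to 333 bases with it at 90% identity or more and had 0 reads. The 15 other genes with a Cyp symbol within 500000 bases of Cyp4b1 also had 0 reads.

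Because Cyp4b1 and Cyp2e1 were both higher in every cold library, the bases just upstream of their genes are shown, read 5′ to 3′ on each gene's own strand from the RefSeq promoter table for GRCm38.p6. That table held 5 of the 7 genes, and shares below are over 27025 promoters, 1 per gene symbol, at the same window length. In the promoters compared, the bases were counted from the upstream end of each RefSeq window, so they need not reach that gene's start. The Cyp4b1 and Cyp2e1 windows shown end directly before the annotated start of the gene's most-read transcript, so the comparison is not aligned in the same way. Capitals mark the motif matches. The Cyp4b1 window is chr4:115647724-115647971, minus strand, and the Cyp2e1 window is chr7:140763569-140763738, plus strand.
Cyp4b1 upstream: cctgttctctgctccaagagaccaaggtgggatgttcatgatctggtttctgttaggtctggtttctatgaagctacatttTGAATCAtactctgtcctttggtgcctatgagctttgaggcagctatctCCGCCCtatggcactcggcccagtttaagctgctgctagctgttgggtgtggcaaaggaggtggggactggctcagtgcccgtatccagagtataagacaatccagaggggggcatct
Cyp2e1 upstream: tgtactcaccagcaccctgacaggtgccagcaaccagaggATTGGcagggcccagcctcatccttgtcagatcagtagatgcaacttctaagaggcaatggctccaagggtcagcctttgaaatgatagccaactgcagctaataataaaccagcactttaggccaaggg
The 248 bases before Cyp4b1 held an AP-1 type match to TGANTCA that starts 167 bases upstream, which 6.84% of promoters also held. They further held a GC box, GGGCGG, on the opposite strand at 118 bases upstream, found in 32.7% of promoters. The 170 bases before Cyp2e1 held a CCAAT box on the opposite strand at 130 bases upstream, found in 23.6%. Other motifs were searched on both strands and had no match in the Cyp4b1 window. They were the cyclic AMP response element TGACGTCA (in 1.60% of promoters), its core TGACG (17.7%), which lies inside the former, the nuclear receptor core site AGGTCA (13.8%), the extended site TCAAGGTCA (0.366%), which contains it, the TATA box TATAAA (12.9%), CCAAT (34.4%) and the direct repeat bound by PPAR receptors (0.037%). These are matches of letters and no measurement of binding.

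Cyp2e1 was at the edge of detection without cold. Reads numbered 1, 1 and 2 in control mice 2, 9 and 14 and 14, 17 and 33 in cold mice 4, 11 and 15. The levels were 0.541, 1.03 and 1.20 CPM against 4.70, 5.63 and 10.9 CPM, with cold mouse 15 well above the rest. The means were 0.923 ± 0.342 and 7.07 ± 3.33 CPM (SD, n = 3 each). Summed over each group, 4 control and 64 cold reads gave a ratio of 7.95 with an exact 95% counting interval of 2.96 to 30.1. The fitted log2 change was 2.91 ± 0.62 (SE). The gene (ENSMUSG00000025479, chr7:140763739-140774987) shares a stretch of up to 216 bases at 90% identity or more with 16 other genes, on which 4883 reads fell, so its few reads may be mixed with theirs. Cold mouse 15 was also the library richest in skeletal muscle markers, at 6500 CPM, and the part of muscle RNA in the Cyp2e1 level was not tested.

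Cyb5r1, an NADH-cytochrome b5 reductase of a membrane-anchored type, went the same way. It had 3, 2 and 4 reads in control mice 2, 9 and 14 and 25, 23 and 63 reads in cold mice 4, 11 and 15. The levels were 1.62, 2.06 and 2.40 CPM in the controls and 8.39, 7.61 and 20.8 CPM in the cold. Here too cold mouse 15 stood above both other cold mice, and no cold library overlapped a control. The means were 2.03 ± 0.390 and 12.3 ± 7.37 CPM (SD, n = 3 each), with a log2 change of 2.58 ± 0.57 (SE), and the ratio of summed reads was 6.13 (exact 95% counting interval 3.11 to 13.8). Without cold mouse 15 the log2 change was 1.97. The gene (ENSMUSG00000026456) lies at chr1:134405559-134411740, and 115 of its 120 reads fell on the coding transcript Cyb5r1-201. No motif of those searched matched its RefSeq upstream window. Cold mouse 15, its highest library, was also the one richest in muscle markers, and their part in the Cyb5r1 level was not tested.

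Cyb5a, the cytochrome b5 of the endoplasmic reticulum, was lower in the cold. It had 182, 85 and 172 reads in control mice 2, 9 and 14 and 145, 135 and 145 reads in cold mice 4, 11 and 15. In CPM this was 98.4, 87.3 and 103 against 48.7, 44.7 and 47.8. The groups did not overlap, and the cold libraries differed little, with a coefficient of variation of 4.45% against 12.9% for Cyp4b1. The mean was 96.3 ± 8.14 CPM in the controls and 47.0 ± 2.09 CPM in the cold (SD, n = 3 each), so that the controls held 2.05 times the cold level, a log2 change of -1.04 ± 0.20 (SE). The gene (ENSMUSG00000024646) lies at chr18:84838704-84879871.

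Cyb5b, the cytochrome b5 of the mitochondrial outer membrane, was also lower. Its 27, 20 and 27 control reads and 17, 15 and 28 cold reads, in mouse order, were 14.6, 20.6 and 16.2 CPM against 5.71, 4.96 and 9.22 CPM. The raw reads of the groups overlapped and the levels did not, since the cold libraries were deeper. The mean was 17.1 ± 3.08 CPM in the controls and 6.63 ± 2.28 CPM in the cold (SD, n = 3 each), or 2.58 times as much in the controls, with a log2 change of -1.33 ± 0.32 (SE). The gene (ENSMUSG00000031924) lies at chr8:107150640-107187471, and 131 of its reads fell on the coding transcript Cyb5b-201 and 3 on Cyb5b-202.

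Por, the reductase that passes electrons to microsomal P450 enzymes, was close to level. It had 90, 53 and 110 reads in control mice 2, 9 and 14 and 224, 210 and 185 in cold mice 4, 11 and 15. The levels were 48.7, 54.5 and 66.0 CPM in the controls and 75.2, 69.5 and 60.9 CPM in the cold, and cold mouse 15 lay below control mouse 14. The means of 56.4 ± 8.82 and 68.5 ± 7.17 CPM (SD, n = 3 each) gave a log2 change of 0.28 ± 0.22 (SE).

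Cyb5r3, the main NADH-cytochrome b5 reductase of most tissues, had only 17 reads in all: 3, 0 and 7 in control mice 2, 9 and 14 and 2, 4 and 1 in cold mice 4, 11 and 15. The levels were 1.62, 0 and 4.20 CPM against 0.671, 1.32 and 0.329 CPM. The groups overlapped, and so few reads allow no statement on a difference. The ratio of summed cold to control reads was 0.348, with an exact 95% counting interval of 0.112 to 1.01. That interval pools the reads of each group and leaves out the spread between mice. With no filter on low counts the log2 change was -1.31 ± 0.84 (SE). The gene (ENSMUSG00000018042, chr15:83153494-83172592) was the single one of the 7 that was left out of the fit over all genes for low counts.

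That fit, edgeR's quasi-likelihood test with Benjamini-Hochberg adjustment, covered 2093 genes, of which 33.2% were called at an adjusted p under 0.05. It called 18.1% of genes higher and 15.1% lower in the cold, and in 47.8% of genes the libraries of the groups did not overlap. Of the 6 genes here that were tested, 3 were called higher (Cyp4b1, Cyp2e1 and Cyb5r1), 2 lower (Cyb5a and Cyb5b) and Por was not called, and the libraries did not overlap in 5 of 6. Nothing is read from these counts, since the genes were selected on the same comparison. In addition, Cyp2e1 and Cyb5r1 passed the minimum of 4.19 CPM in 3 cold and 0 control libraries, so that to be tested at all they had to be higher in the cold. Cyp4b1, Por, Cyb5a and Cyb5b passed it in all 6 libraries.

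**Figure D2:**
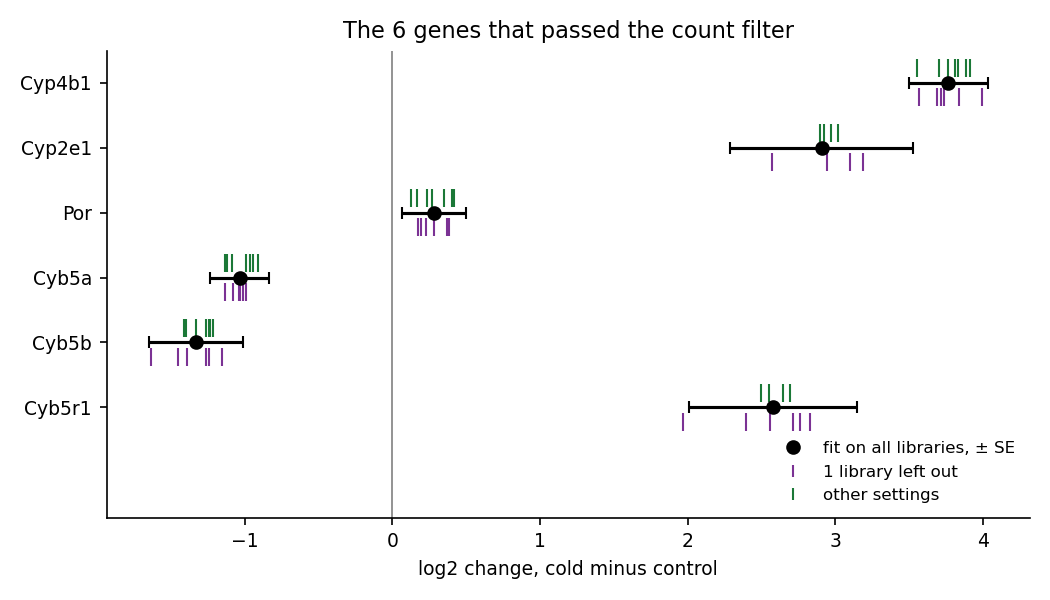
Log2 change, cold minus control, of the 6 genes that passed the low count filter (black, ± SE of the fit over all genes), with the values obtained when 1 library was left out (purple) and under other settings (green). Cyp4b1 stayed between 3.55 and 4.00, Cyb5a and Cyb5b stayed below 0, and Por stayed above 0 but within 0.42 of it.

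Division by transcript length put the genes on 1 scale, CPM per kb, for which each gene's length is the mean over its transcripts weighted by reads. Each read of these libraries stands for a whole cDNA, so the division by length itself affects the order, and where plain CPM gives another one this is stated. In the controls Cyb5a led at 107 ± 9.02 CPM per kb, followed by Por at 21.6 ± 3.37, Cyp4b1 at 8.37 ± 2.45 and Cyb5b at 4.00 ± 0.719 CPM per kb (SD, n = 3 each). On this scale each of these was separated from the next in every library. In plain CPM, however, Cyp4b1 and Cyb5b overlapped in the controls, at 15.8 ± 4.63 and 17.1 ± 3.08 CPM. Cyb5r1 at 1.09, Cyb5r3 at 0.887 and Cyp2e1 at 0.505 CPM per kb came last, and Cyb5r3, which ranged widely, overlapped both others. In the cold Cyp4b1 led at 117 ± 15.0 CPM per kb, ahead of Cyb5a at 52.1 ± 2.32 and Por at 26.2 ± 2.74 (SD, n = 3 each), again with no overlap between neighbours. In plain CPM the order of the last pair was the reverse, with Por at 68.5 ± 7.17 CPM above Cyb5a at 47.0 ± 2.09 CPM and no overlap. Cyb5r1 at 6.58 ± 3.96 and Cyp2e1 at 3.87 ± 1.82 CPM per kb overlapped, and Cyb5b at 1.55 ± 0.532 lay below both. In plain CPM, however, Cyb5b at 6.63 ± 2.28 CPM in the cold overlapped Cyp2e1 at 7.07 ± 3.33 and Cyb5r1 at 12.3 ± 7.37 CPM. Cyb5r3 came last at 0.354 CPM per kb.

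In message, the order of Cyp4b1 and the donors Por and Cyb5a was reversed between the groups. For each unit of Cyp4b1 per kb there were 1.71, 3.48 and 3.06 units of Por in control mice 2, 9 and 14 and 0.288, 0.217 and 0.182 units in cold mice 4, 11 and 15. Cyb5a stood at 10.02, 16.2 and 13.8 times Cyp4b1 in the controls and at 0.541, 0.404 and 0.413 times Cyp4b1 in the cold. Every control library thus held more Por and Cyb5a than Cyp4b1 message per kb, and every cold library held less, and the same was true of plain reads, with 2.37 to 4.82 Por reads per Cyp4b1 read in the controls and 0.252 to 0.399 in the cold, and 4.79 to 7.73 against 0.193 to 0.258 for Cyb5a. The donors stood to each other at 0.171, 0.215 and 0.221 Por per Cyb5a per kb in the controls and 0.533, 0.537 and 0.440 in the cold. In plain reads this ratio was 0.495, 0.624 and 0.640 in the controls and 1.54, 1.56 and 1.28 in the cold, so by reads it crossed 1 and per kb it did not. The ratio of the b5 forms did not separate the groups, with 31.95, 20.1 and 30.2 Cyb5a per Cyb5b per kb in the controls and 40.4, 42.7 and 24.5 in the cold. Division by length raises this ratio, at a mean transcript length of 903 bases for Cyb5a and 4279 for Cyb5b. The excess of Cyb5a was much smaller in plain CPM, with means of 96.3 for Cyb5a and 17.1 for Cyb5b in the controls. In the cold these means were 47.0 and 6.63 CPM. All of these are ratios of message, and protein was not measured. They follow from gene counts that were known when the genes were chosen, so they are a description. Reads of all transcripts of a gene enter them, Por-202 and the decay-annotated Cyb5a-208 included, both described below.

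**Figure D3:**
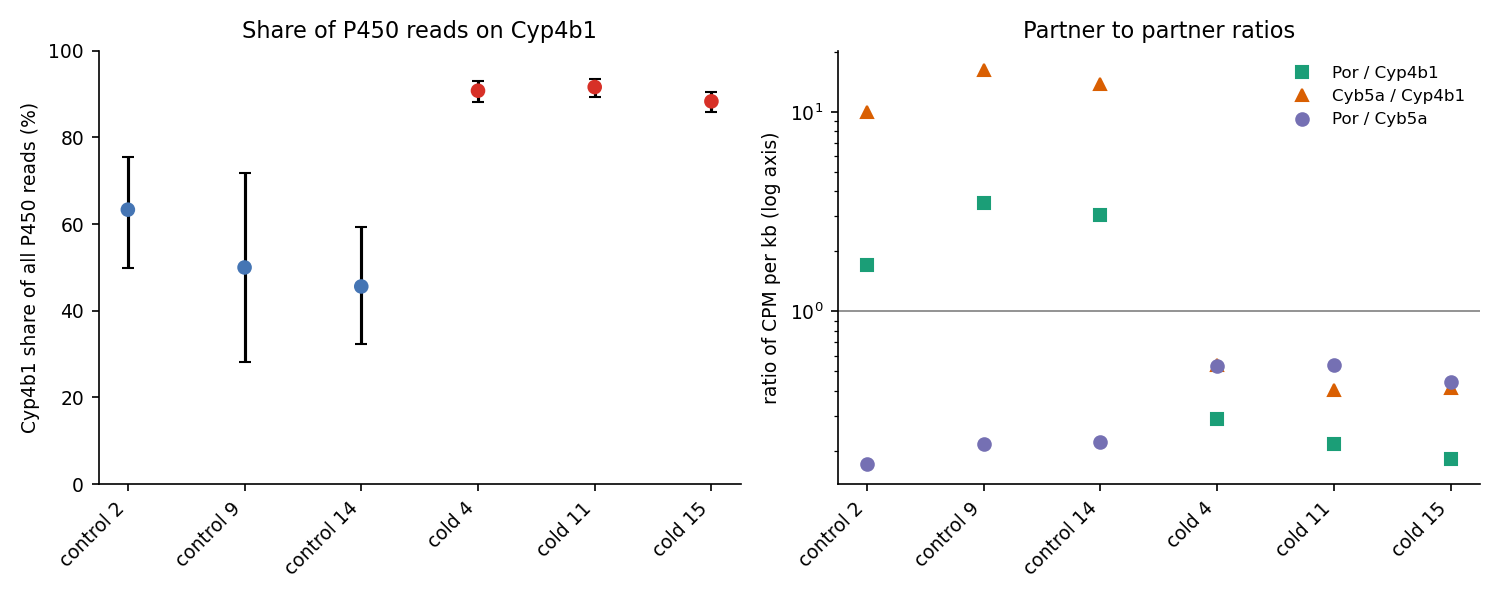
Left, Cyp4b1 reads as a percentage of all P450 reads in each library, with exact 95% binomial intervals. Right, ratios of CPM per kb between Por, Cyb5a and Cyp4b1 in each library on a log axis. The Cyp4b1 share was 45.6 to 63.3% in the controls (blue) and 88.3 to 91.6% in the cold (red), and both ratios to Cyp4b1 crossed 1 between the groups.

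Cyp4b1 made up most of the P450 message in the cold. All P450 genes together had 60, 22 and 57 reads in control mice 2, 9 and 14 and 618, 764 and 831 in cold mice 4, 11 and 15. The Cyp4b1 share in the controls was 63.3% (exact 95% binomial interval 49.9 to 75.4), 50% (28.2 to 71.8) and 45.6% (32.4 to 59.3). In the cold it was 90.8% (88.2 to 92.9), 91.6% (89.4 to 93.5) and 88.3% (85.9 to 90.4). Means were 53.0 ± 9.23% and 90.2 ± 1.71% (SD, n = 3 each). The intervals cover the sampling of reads within a library and not the spread between mice. The share follows the Cyp4b1 counts, which were known when the genes were chosen, so it is a description. The remaining P450 message, with Cyp2e1 included, was 11.9, 11.3 and 18.6 CPM in the controls and 19.1, 21.2 and 31.95 CPM in the cold. Cold mouse 4 thus lay only slightly above control mouse 14. Within this remainder Cyp2e1 had 4 reads in the controls and 64 in the cold, and Cyp2b10, described below, had 0 and 39.

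Without Cyp2e1 that remainder was thin. Apart from Cyp4b1 and Cyp2e1, 129 genes with a P450 symbol are annotated, 9 of them had reads, 214 in all, and 1 could be tested. Cyp2d22, a member of the drug-metabolising family 2, had 5.31 ± 3.72 CPM in the controls and 7.53 ± 1.41 CPM in the cold (SD, n = 3 each), a log2 change of 0.44 ± 0.45 (SE, adjusted p = 0.479). Of the untested ones, Cyp2b10, a family 2 enzyme known as a target of the receptor CAR, had 0 reads in each control and 3, 6 and 30 in cold mice 4, 11 and 15. Most of its 39 reads were in cold mouse 15, the library richest in muscle markers. The exact 95% counting interval of the cold to control ratio began at 5.01, and at 1.48 without cold mouse 15. With no filter on low counts it was called (adjusted p = 3.36e-05), and it was the single called gene of these 129. Cyp4f13 (8, 4 and 5 control reads, 8, 5 and 6 cold reads) and Cyp4v3 (2, 2 and 4 against 1, 1 and 3), both of family 4 like Cyp4b1, showed no such excess: their levels were 3.00 to 4.33 and 1.08 to 2.40 CPM in the controls and 1.65 to 2.69 and 0.331 to 0.988 CPM in the cold.

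Reads of a gene can be split over its transcripts, a measure that was not used in choosing the 7 genes. Over 539 genes with at least 2 tested transcripts, the split differed between cold and control in 1.67% at an adjusted p under 0.05, which is 9 genes, with 26 at an unadjusted p under 0.05. Of the 7 genes only Por and Cyb5a had 2 tested transcripts, and neither was called. For Por the p was 0.974 and for Cyb5a 0.842, and both were 1.00 after adjustment (diffSpliceDGE of edgeR with Benjamini-Hochberg adjustment). Each of the 4 transcripts was within 0.07 of 0 in log2 change relative to its gene.

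The leading Por transcript was not the one for the full-length enzyme. Por-202 took 54, 38 and 69 reads in control mice 2, 9 and 14 and 147, 144 and 111 in cold mice 4, 11 and 15, which is 60, 71.7 and 62.7% against 65.6, 68.6 and 60%. Por-201, with 16 exons and 678 residues, took 36, 15 and 41 reads in the controls and 76, 66 and 74 in the cold. The share of Por-202 was thus the larger in all 6 libraries, and its group means of 64.8 ± 6.12 and 64.7 ± 4.35% (SD, n = 3 each) differed by -0.0763 percentage points. The annotated models differ at both ends. Por-202 starts 122 bases downstream of Por-201, lacking chr5:135689036-135689157, and near its 3′ end it keeps 92 bases, chr5:135734529-135734620 on the plus strand, that Por-201 splices out. Por-202 encodes 649 residues, and its annotated stop codon at chr5:135734670-135734672 lies just past this stretch. It is shown because it is the coding difference between the models, with its first and last 2 bases, an intron's usual GT and AG, in capitals.
Por retained stretch: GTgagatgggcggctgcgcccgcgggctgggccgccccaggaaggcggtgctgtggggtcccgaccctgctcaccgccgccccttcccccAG
A spliced molecule that begins at the downstream start matches neither model in full. The sources used here do not give the rule by which such reads were assigned, so the share of Por-202 is a share of assignments and not a direct count of retained introns. The Por gene (ENSMUSG00000005514) spans chr5:135670033-135735326.

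**Figure D4:**
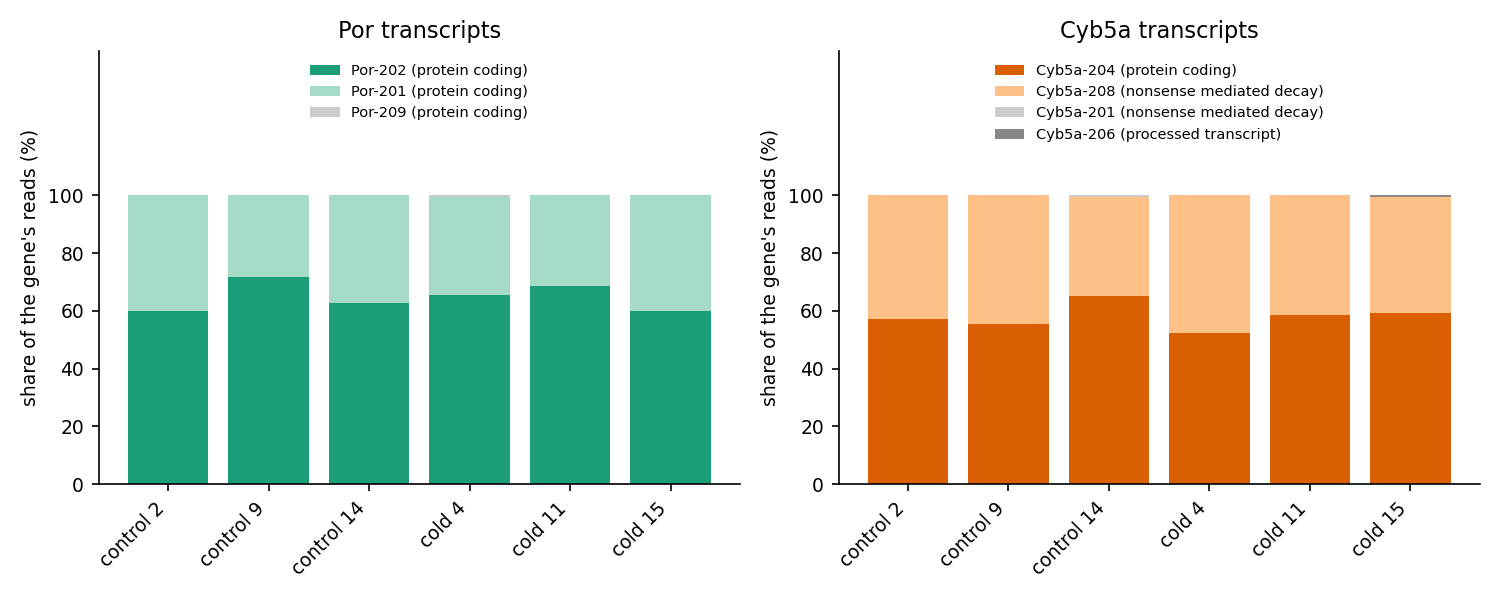
Share of each gene's reads on its annotated transcripts in each library, for Por (left) and Cyb5a (right), in percent. Por-202 held 60 to 71.7% and Cyb5a-204 held 52.4 to 65.1% of reads, with controls and cold libraries overlapping in both.

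Cyb5a was split in a similar way. The coding transcript Cyb5a-204, with 5 exons and 134 residues, took 104, 47 and 112 reads in control mice 2, 9 and 14 and 76, 79 and 86 in cold mice 4, 11 and 15. Cyb5a-208, which holds an additional exon of 250 bases, encodes 54 residues and is annotated for nonsense-mediated decay, took 78, 38 and 59 reads against 69, 56 and 58. It therefore made up 42.9, 44.7 and 34.3% of Cyb5a reads in the controls and 47.6, 41.5 and 40% in the cold. Both transcripts were lower in the cold by a like amount, since their log2 changes relative to the gene were -0.05 for Cyb5a-204 and 0.07 for Cyb5a-208.

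The share of the most-read transcript was tested in 6 of the genes by an exact two-sided permutation test, which with 3 against 3 libraries cannot give a p below 0.1. The p was 1 for Cyp4b1, Por and Cyb5b, 0.6 for Cyb5a and 0.4 for Cyp2e1 and Cyb5r1, and every one was 1 after Benjamini-Hochberg adjustment over the 6 genes. The differences, cold minus control, ranged from -4.49 percentage points in Cyb5r1 to 1.28 in Cyb5b.

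Several enzymes take electrons from the same donors. Of 23 such acceptors beyond the P450 enzymes, 11 had reads and 3 could be tested, of which 1 rose, 1 fell and 1 was not called, with a median log2 change of -0.31 against 0.04 over all 2093 genes. Of those 2093 genes 18.1% were called higher and 15.1% lower, and 3 genes are too few to compare with these shares. Scd1, the desaturase that draws on cytochrome b5, fell from 1767 ± 867 to 152 ± 73.3 CPM (SD, n = 3 each), with a log2 change of -3.54 ± 0.51 (SE, adjusted p = 0.00203). The filter on low counts was met by Hmox2 in 3 cold and 2 control libraries, so its control libraries alone did not suffice for a test. Hmox2, a heme oxygenase that draws on POR, rose from 7.71 ± 4.90 to 34.9 ± 5.37 CPM (log2 change 2.06 ± 0.38, adjusted p = 0.00208). Marc2, an amidoxime reductase of the mitochondrial outer membrane that works with Cyb5b, had a log2 change of -0.32 (adjusted p = 0.328).

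Of 13 other genes with a cytochrome b5 fold or a related reductase, 3 could be tested, with a median log2 change of 0.16. Of these 3 genes 1 was called, beside 33.2% of all tested genes. Nenf, a small heme-binding protein of the b5 fold, had 3.61 ± 1.33 CPM in the controls and 22.5 ± 3.21 CPM in the cold (log2 change 2.71 ± 0.33, adjusted p = 0.000204). It met the filter on low counts in 3 cold and 1 control libraries, so its higher cold level is what let it be tested, and its call is a description only. Pgrmc1, a b5-fold partner of P450 enzymes in the endoplasmic reticulum, had a log2 change of 0.16 ± 0.25 (adjusted p = 0.660), and its relative Pgrmc2 one of -0.83 ± 0.45 (adjusted p = 0.178). Mitochondrial P450 enzymes use ferredoxins in place of POR. Neither tested gene of that route was called: Fdx1 had a log2 change of -0.34 ± 0.33 (adjusted p = 0.458) and Fdx1l one of 0.64 ± 0.40 (adjusted p = 0.249).

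P450 enzymes and cytochrome b5 need heme. Of 15 heme synthesis genes, 6 were tested, of which 2 rose and 1 fell, with a median log2 change of -0.02. Over all tested genes 18.1% were called higher and 15.1% lower, and 6 genes are too few to compare with these shares. Alas1, the rate-limiting enzyme outside red cells, rose from 648 ± 189 to 1313 ± 130 CPM (SD, n = 3 each), with a log2 change of 1.02 ± 0.22 (SE, adjusted p = 0.00559). Slc25a39, a mitochondrial carrier long linked to heme synthesis and since shown to import glutathione, rose from 621 ± 17.0 to 1115 ± 87.9 CPM (log2 change 0.84 ± 0.16, adjusted p = 0.00217). Alad, the next enzyme after ALAS1, fell from 99.8 ± 13.2 to 59.9 ± 5.20 CPM (log2 change -0.73 ± 0.21, adjusted p = 0.0196). The Alad call was lost without cold mouse 11 (adjusted p = 0.0833), without cold mouse 15 (adjusted p = 0.0593) and with no filter on low counts (adjusted p = 0.184). Tmem14c, a carrier of heme precursors, and Urod, a later enzyme of the route, were not called, with log2 changes of -0.03 (adjusted p = 0.878) and -0.56 (adjusted p = 0.101). Markers of red cells, which make heme in quantity as they mature, summed to 14978 to 28132 CPM in the controls and 16327 to 22521 CPM in the cold, and the groups overlapped.

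A list of 13 genes was drawn up for NADPH supply to the cytosol or the endoplasmic reticulum. It holds enzymes that form NADPH and also genes that do not form it themselves, among them Slc25a1, Tkt, Taldo1 and Pgls. Of the list 9 genes were tested, of which 6 fell and 1 rose, with a median log2 change of -1.17. Over all tested genes 15.1% were called lower and 18.1% higher. Among the tested enzymes that form NADPH, Me1 and Pgd fell, Idh1 rose and G6pdx was not called. The falls included Slc25a1, the mitochondrial citrate carrier (log2 change -3.86 ± 0.33, adjusted p = 2.1e-05), Tkt, transketolase of the pentose phosphate pathway (-2.69 ± 0.23, adjusted p = 2.1e-05), and Me1, the NADP-dependent malic enzyme (-3.07 ± 0.58, adjusted p = 0.00599). Taldo1 and Pgls, further enzymes of the pentose phosphate pathway, fell too and had log2 changes of -1.36 and -1.17 (adjusted p = 0.000159 and 0.00182). The remaining fall was Pgd, of the same pathway, from 4445 ± 1612 to 2185 ± 277 CPM (log2 change -1.02 ± 0.24, adjusted p = 0.00801). Idh1, the cytosolic isocitrate dehydrogenase that makes NADPH, was the exception and rose from 7.07 ± 3.00 to 24.0 ± 3.59 CPM (log2 change 1.85 ± 0.33, adjusted p = 0.00160). G6pdx, the first enzyme of the pentose phosphate pathway, had a log2 change of -0.16 (adjusted p = 0.749) and Nadk, NAD kinase, one of 0.50 (adjusted p = 0.454).

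Of 27 other enzymes of oxidation and conjugation, many of which handle P450 products, 10 were tested, of which 6 fell and 1 rose, beside the 15.1% and 18.1% of all tested genes called lower and higher, with a median log2 change of -1.32. Ephx2, the soluble epoxide hydrolase that opens fatty acid epoxides, rose from 935 ± 111 to 2568 ± 202 CPM (SD, n = 3 each), with a log2 change of 1.46 ± 0.16 (SE, adjusted p = 8.8e-05). Hsd11b1, which regenerates active glucocorticoid with NADPH inside the endoplasmic reticulum, fell by 2.11 on the log2 scale (adjusted p = 0.000550). The glutathione transferases Gstm2, Gstt1, Gstp1 and Gstm1 fell, with log2 changes of -2.01, -1.64, -1.53 and -1.37 (adjusted p = 0.000558, 0.00476, 0.00393 and 0.00132). Gstt1 met the filter on low counts in 3 control and 0 cold libraries, so it was tested only because of its control level. Gstp1 met it in 3 control and 2 cold libraries, so its cold libraries alone did not suffice. The count of falls is to be read with these limits. The transferases belong to families of close copies, so reads may be split between relatives. Ces1d, a carboxylesterase, had a log2 change of -0.28 (adjusted p = 0.251) and Mgst1, a membrane glutathione transferase, one of -0.52 (adjusted p = 0.0876).

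Of 20 nuclear receptors and other factors known to regulate P450 genes, 7 were tested, with a median log2 change of 0.07. By edgeR's quasi-likelihood test 0 of the 7 were called, against 33.2% of all tested genes. These 7 genes are too few to compare with this share, and Pparg and Esrra among them had group means of 5.31 to 7.44 CPM. Without control mouse 2, 1 of the 7 was called lower. The remaining regulators had too few reads or none, and nothing is said of them. The most abundant were Cebpb, a factor of fat cell differentiation, with a log2 change of -0.06 (adjusted p = 0.899), and Nr1h2, the oxysterol receptor LXR beta, with one of 0.16 (adjusted p = 0.667).

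**Figure D5:**
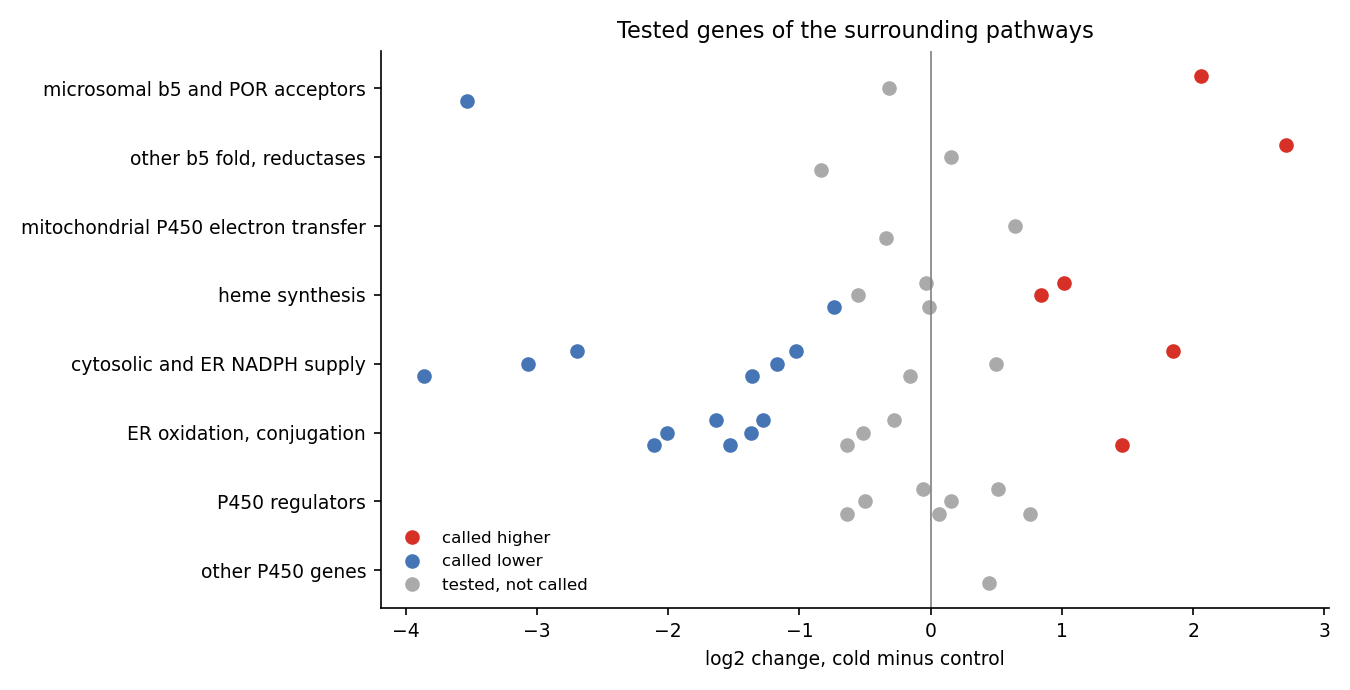
Log2 change, cold minus control, of each tested gene of 8 lists of related genes, coloured by the call of the fit over all genes at an adjusted p under 0.05. The NADPH supply and oxidation and conjugation lists had 6 falls and 1 rise each, of 9 and 10 tested genes. The list of P450 regulators had 0 calls among 7 tested genes, which are too few to compare with all tested genes. Of all tested genes 33.2% were called.

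The genes whose profile over the 6 libraries was most like that of Cyp4b1 were sought among 954 genes with a mean of at least 32 CPM, by the root mean square difference between log2 CPM values centred on each gene's own mean. The closest was Adtrp, a membrane hydrolase of fatty acid esters of hydroxy fatty acids, at a difference of 0.161 and with 21.6, 14.4 and 22.2 CPM in control mice 2, 9 and 14 and 216, 256 and 338 CPM in cold mice 4, 11 and 15. Cntfr, a subunit of the ciliary neurotrophic factor receptor, followed at 0.326, and Got1, the cytosolic aspartate aminotransferase, at 0.363. Fabp3, a fatty acid binding protein that is abundant in heart and in muscle, stood at 0.476 and Gmpr, guanosine monophosphate reductase, at 0.481. The likeness rests on 6 libraries that fall into 2 groups and is a description.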

How the data were processed

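Per the submitters' processing notes, reads were processed with minimap2 on the mouse genome build GRCm38. The authors deposited raw read counts per Ensembl transcript in 1 file per library and flow cell (12 files, 2 flow cells per library), with no normalization. For reads that match several transcripts, the sources used here give no rule. The extraction text of the labels names eWAT, a white fat depot, and cold housing is described on all 6 records; tissue and group were taken from the tissue label, titles and treatment tag.

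Counts were summed over flow cells and over the transcripts of a gene by GENCODE M21, in which 14671 of 14693 transcript identifiers matched. The 22 others took up to 0.00433% of the reads in any library. The gene test was run in R 4.3.3 with edgeR 4.0.16 (filterByExpr with a minimum count of 10, TMM, robust quasi-likelihood test, Benjamini-Hochberg adjustment). The SE was derived from F, as the size of the log2 change over its root. Transcript use was tested with diffSpliceDGE. Near-identical copies were sought with blastn 2.17.0. The scripts were tested on simulated data. Alternatives were DESeq2 1.42.0, library totals in place of TMM, no low count filter, each flow cell alone, thinning to 1014812 reads per library, coding transcripts alone and leaving out each library.

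The 7 genes, the lists and the tests were chosen with earlier results of these data known. The text names all 7 genes. From each list it names up to 6 called genes, smallest p first, and of genes not called the 2 with the highest mean. Pgd is named in addition. Of other P450 genes it names each tested one and the 3 with most reads of those not tested. It also names the 5 genes most like Cyp4b1. Pseudogenes of Cyp4b1 and unnamed models were skipped.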

Additional observations from a re-analysis of the deposited data

How the results depend on the processing

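No paired analysis was possible because no mouse number occurs in both groups. Over the 13 alternatives, the genes called higher, 378, numbered 275 to 360 with 1 library left out and 282 to 449 otherwise, and those called lower, 317, numbered 223 to 327 and 246 to 344. Genes with a called difference in transcript use, 9, numbered 3 with no low count filter and 2 to 6 with 1 library left out. Cyp4b1, Cyb5a and Cyb5b kept their direction under all 13. The Cyb5a log2 change was -0.91 with no filter, and that of Cyb5r1 ranged from 1.97 to 2.83 with 1 library left out. Too few reads were left to fit Cyp2e1 and Cyb5r1 on either flow cell alone or after thinning, and Cyp2e1 also without cold mouse 11 or 15. Of 32 named list genes, Pgd not counted, 20 kept direction and call under all 13. A further 6 kept both where they could be fitted, which was under 9 alternatives for Cyp2d22, 10 for Pgrmc2, Fdx1l and Gstt1, 11 for Gstp1 and 12 for Nadk. The exceptions were Alad and Mgst1 by their call and the next 4 by direction. With library totals the log2 change was 0.0351 for Tmem14c and 0.00661 for Cebpb, and with no filter 0.0903 and 0.0603. With 1 library left out it ranged from -0.105 to 0.0521 for Tmem14c, above 0 without cold mouse 15, and from -0.435 to 0.23 for Cebpb, above 0 without control mouse 14 or cold mouse 15. Pgrmc1 had -0.14 on flow cell 2 and -0.20 after thinning, and G6pdx ranged from -0.488 to 0.0655, above 0 without control mouse 9. Mgst1 was called by DESeq2 (adjusted p = 0.0448) and without control mouse 9 (adjusted p = 0.0384). The difference in the leading transcript's share was -0.749 percentage points for Cyp4b1 and 0.389 for Por on flow cell 1. With 1 library left out it ranged from -0.674 to 1.25 for Cyp4b1, -2.48 to 3.37 for Por, -4.38 to 0.529 for Cyb5a and -1.19 to 2.51 for Cyb5b. The median log2 change of the tested genes was 0.04, and 0.16 with no filter, a shift that applies to each value under that setting. The causes were not tested. Depth limits Cyp2e1, Cyb5r1 and Cyb5r3 most, at no more than 7 reads in any control library.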
